A study of Mus musculus with 24 samples.

Results

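Chemoattractant receptors are the surface proteins by which neutrophils, monocytes and macrophages sense where to move and when to become active. The 9 genes described here, Fpr1, Fpr2, C5ar1, C5ar2, C3ar1, Ltb4r1, Ptafr, Cxcr4 and Ccr1, were taken by symbol from the 54658 gene symbols of both count tables, and all 9 were present and passed the low-count filter in each tissue. Male C57BL/6 mice of 7 to 12 weeks received β-NMN, a precursor of NAD+, at 185 mg/kg per day or saline (vehicle), both injected into the peritoneum. Peritoneal cells came from 6 vehicle and 6 β-NMN mice given 1 mL of 4% Brewer thioglycollate medium (TGC), an irritant that draws leukocytes into the peritoneum without infection, and the lavage cells of all 12 mice were then cultured with E. coli for 6 h at a multiplicity of infection of 15. Hearts and lungs came from 3 vehicle and 3 β-NMN mice with polymicrobial sepsis after cecal ligation and puncture (CLP), both organs from the same animals, a day after surgery. All groups therefore carried peritonitis, unstimulated peritoneal cells and sham mice were not analysed here, and the libraries are bulk RNA of unsorted cells or of whole tissue pieces. Per the paper, the TGC mice were injected daily for 3 days, the first dose together with TGC. The CLP organs were taken after 1 injection, given right after surgery. Number of doses and time of exposure thus differed between peritoneal cells and organs.

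The receptors fall into 4 kinds by ligand. Fpr1 and Fpr2 bind formylated peptides that bacteria and damaged mitochondria release, and Fpr2 also binds annexin A1 and serum amyloid A. C5ar1 and C3ar1 bind the complement fragments C5a and C3a, and C5ar2 is a second C5a receptor that does not couple to G proteins. Ltb4r1 binds the lipid leukotriene B4 and Ptafr binds platelet-activating factor. Cxcr4 binds the chemokine Cxcl12, which holds neutrophils in the bone marrow, and Ccr1 binds Ccl3, Ccl5 and related chemokines.

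The genes lie on 7 chromosomes of GRCm38. Fpr1 (chr17:17876471-17883940, − strand) and Fpr2 (chr17:17887824-17893952, + strand) are neighbours with 3883 bases between them and point away from each other. C5ar2 (chr7:16234585-16244154, − strand) and C5ar1 (chr7:16246743-16259540, − strand) are also neighbours, 2588 bases apart. The others are C3ar1 (chr6:122847138-122856161, − strand), Ltb4r1 (chr14:55765962-55768494, + strand), Ptafr (chr4:132564067-132582683, + strand), Cxcr4 (chr1:128588199-128592293, − strand) and Ccr1 (chr9:123962124-123968692, − strand). All are protein-coding genes with 2 or 3 exonic blocks, and 3.70% of the exonic bases of Fpr2 are shared with Fpr3 and 3.57% of those of C5ar2 with Gm26473, so reads from those bases could not be told apart.

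The 250 bases upstream of the RefSeq start (GRCm38.p6) are shown for 4 receptors that fell in peritoneal cells with β-NMN and for 2 that were not called there, Ptafr and Ccr1, the lipid and chemokine receptors set beside Ltb4r1 and Cxcr4. They were chosen after the values were seen. The window of C5ar1, which also fell, lies partly inside its annotated gene, holds none of the 4 motifs below and is not printed, and those of C3ar1 and C5ar2 are given by their matches. Capitals mark matches, on either strand, to GAGGAA (the core bound by the myeloid factor PU.1), TTGCNNAA (C/EBP), TGANTCA (AP-1) and TATAAA (the TATA box), and matches that overlap run together.
Fpr1, chr17:17883940-17884189, − strand: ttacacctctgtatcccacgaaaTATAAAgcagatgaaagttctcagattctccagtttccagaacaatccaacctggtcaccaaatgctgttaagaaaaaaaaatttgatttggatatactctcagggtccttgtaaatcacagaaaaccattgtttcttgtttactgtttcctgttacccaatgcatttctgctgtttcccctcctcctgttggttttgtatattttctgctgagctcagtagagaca
Fpr2, chr17:17887574-17887823, + strand: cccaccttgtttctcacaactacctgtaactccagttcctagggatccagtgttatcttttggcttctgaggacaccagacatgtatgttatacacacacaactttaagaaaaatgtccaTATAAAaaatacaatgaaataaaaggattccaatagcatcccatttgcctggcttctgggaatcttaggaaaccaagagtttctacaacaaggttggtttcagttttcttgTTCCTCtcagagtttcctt
Ltb4r1, chr14:55765712-55765961, + strand: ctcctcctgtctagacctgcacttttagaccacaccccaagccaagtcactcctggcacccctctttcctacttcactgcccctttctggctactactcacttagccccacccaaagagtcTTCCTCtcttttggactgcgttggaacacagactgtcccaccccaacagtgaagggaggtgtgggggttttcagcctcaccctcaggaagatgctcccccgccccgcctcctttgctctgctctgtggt
Cxcr4, chr1:128592300-128592549, − strand: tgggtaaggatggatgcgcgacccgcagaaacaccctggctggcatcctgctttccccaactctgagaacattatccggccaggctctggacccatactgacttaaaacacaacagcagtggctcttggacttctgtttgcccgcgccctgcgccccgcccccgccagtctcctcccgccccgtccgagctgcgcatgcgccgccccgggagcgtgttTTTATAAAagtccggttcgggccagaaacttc
Ptafr, chr4:132563817-132564066, + strand: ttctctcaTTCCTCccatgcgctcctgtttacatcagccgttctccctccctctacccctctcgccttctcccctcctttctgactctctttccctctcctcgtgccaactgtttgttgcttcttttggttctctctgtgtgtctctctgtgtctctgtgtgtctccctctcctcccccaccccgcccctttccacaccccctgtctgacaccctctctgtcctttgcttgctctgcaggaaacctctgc
Ccr1, chr9:123968693-123968942, − strand: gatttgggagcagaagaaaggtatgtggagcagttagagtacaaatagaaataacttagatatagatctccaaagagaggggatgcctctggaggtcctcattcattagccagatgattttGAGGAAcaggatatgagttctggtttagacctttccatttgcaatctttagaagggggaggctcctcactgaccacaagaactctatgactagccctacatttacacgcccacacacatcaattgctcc
RefSeq gave 10 windows for the 9 genes, since C5ar2 has an alternative start. TATAAA stood upstream of 4 of the 9 genes (Fpr1, Fpr2, Cxcr4 and C3ar1), against 12.4% of 32817 upstream windows of the same length in the mouse. GAGGAA stood upstream of 5 (Fpr2, Ltb4r1, Ptafr, Ccr1 and the alternative start of C5ar2), against 23.3% of windows. TTGCNNAA was found upstream of C5ar2 and TGANTCA upstream of C3ar1, against 9.57% and 6.75% of windows. TATAAA and GAGGAA each stood upstream of members that fell and of members that were not called. These matches describe letters in the window and do not show that a factor binds there.

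Total counts ranged from 31.1 to 112 M in peritoneal cells, from 27.3 to 68.5 M in hearts and from 8.92 to 28.4 M in lungs. Both organs of vehicle mouse 2 stood apart from the other vehicle mice: the SD over genes of the log2 difference from the mean of the other vehicle libraries was 1.62 in its lung and 0.90 in its heart, against 0.47 to 0.92 in the remaining lungs and 0.44 to 0.61 in the remaining hearts. The lung of vehicle mouse 2 was also the shallowest library, at 8.92 M counts against 16.7 to 28.4 M in the other lungs. Summed cardiac muscle markers (Myh6, Tnnt2, Actc1 and Myl2) reached at least 27799.5 CPM (counts scaled to library size) in every heart. The lung epithelial markers (Sftpc, Sftpb, Ager and Scgb1a1) reached at least 54757 CPM in every lung. The 9 macrophage markers reached at least 5975 CPM in every peritoneal library.

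Expression per gene length placed most of these receptors high in the peritoneal cells. In vehicle mice the mean level, as TMM-scaled CPM divided by the exonic length in kilobases (RPKM), was 191 ± 18.1 for Ptafr, 163 ± 32.0 for Fpr2 and 124 ± 31.3 for C3ar1 (SD, n = 6). Ccr1 followed at 80.2 ± 14.6, Fpr1 at 75.3 ± 27.2 and Cxcr4 at 64.1 ± 7.15 RPKM. These 6 lay between percentiles 94.8 and 98.1 of the genes tested, and each neighbouring pair in this order overlapped in range. C5ar1 at 23.0 ± 4.00, Ltb4r1 at 3.94 ± 0.94 and C5ar2 at 0.34 ± 0.071 RPKM stood apart from each other without overlap. With β-NMN the order of levels changed: Ptafr, C3ar1 and Ccr1 were the upper 3, at 183 ± 16.1, 144 ± 28.4 and 74.7 ± 1.85 RPKM. Cxcr4, Fpr2 and C5ar1 came next at 21.2 ± 3.86, 13.0 ± 5.30 and 10.5 ± 1.64 RPKM, overlapping with their neighbours in this order. Fpr1 at 1.28 ± 0.66 and Ltb4r1 at 0.97 ± 0.29 RPKM came down to the lower end and overlapped with each other. C5ar2 had the lowest mean at 0.33 ± 0.10 RPKM, and its range overlapped with that of Ltb4r1. The summed level of the 9 receptors ranged from 635 to 850 RPKM in vehicle libraries and from 416 to 536 RPKM in β-NMN libraries.

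**Figure D1:**
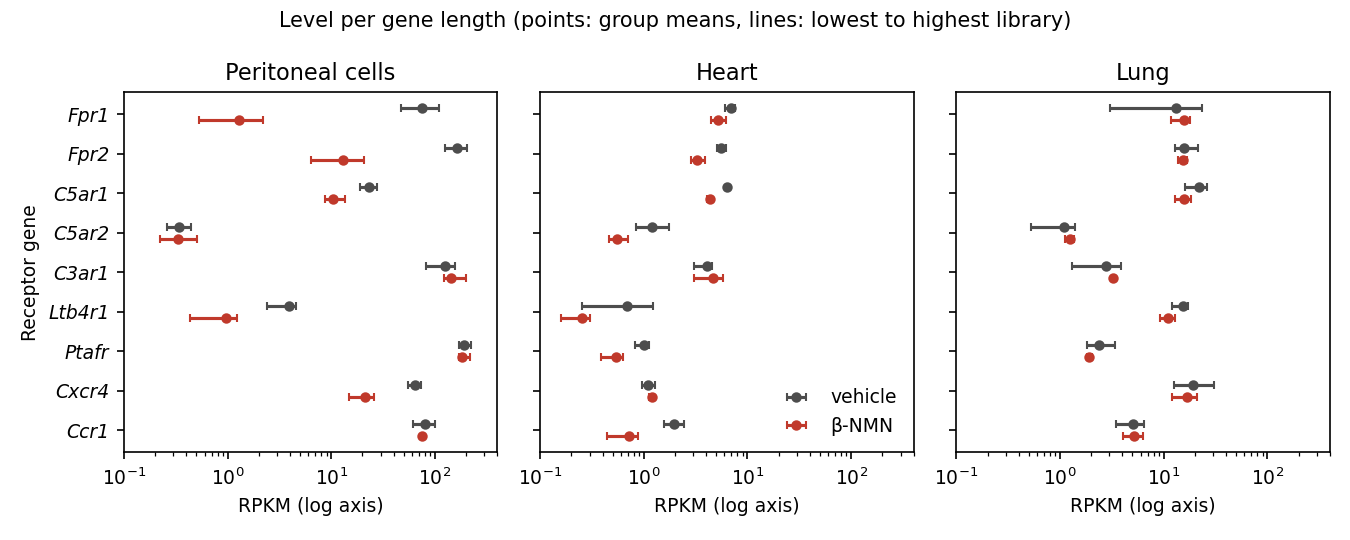
Level of each receptor per gene length (RPKM, log axis) in peritoneal cells, heart and lung, with points at group means and lines from the lowest to the highest library (n = 6 per group in peritoneal cells and 3 in each organ). In peritoneal cells the β-NMN range of Fpr1, Fpr2, C5ar1, Ltb4r1 and Cxcr4 lies wholly below the vehicle range, and in the lung every pair of ranges overlaps.

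In peritoneal cells, β-NMN lowered the formyl peptide receptors most. Fpr1 ranged from 61.7 to 144 CPM in vehicle libraries, with a median of 93.9 CPM, and from 0.70 to 2.88 CPM with β-NMN, with a median of 1.65 CPM. The lowest vehicle library was thus far above the highest β-NMN library. The mean was 58.9-fold lower (99.7 ± 36 against 1.69 ± 0.87 CPM, SD, n = 6 each), and the log2 fold change was -5.93 (SE 0.38, adjusted p = 3.13e-08, edgeR's quasi-likelihood test). Fpr2 ranged from 161 to 265 CPM (median 199 CPM) in vehicle libraries and from 8.23 to 26.6 CPM (median 17.2 CPM) with β-NMN. It fell by 3.66 on the log2 scale (SE 0.26, adjusted p = 8.06e-08), a 12.5-fold difference of the means, again without overlap. Among the 14985 genes tested, the fold change of Fpr1 was the 5th most negative and that of Fpr2 the 71st. In bulk RNA, fewer cells of a type and less RNA per cell cannot be told apart.

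Fpr1 fell more than Fpr2. The ratio of Fpr2 to Fpr1 reads per length within a library was 2.31 ± 0.56 in vehicle libraries (lowest 1.53, highest 3.11) and 10.8 ± 1.58 with β-NMN (lowest 9.06, highest 12.4), so that no library of either group reached the other. For the log2 ratio, the exact permutation test (two-sided) gave p = 0.00216, the smallest that 6 libraries against 6 allow. Within groups Fpr1 and Fpr2 varied together in peritoneal cells: after subtracting group means, Pearson's r of their log2 CPM was 0.92 over the 12 libraries, which share their depth and scaling. Of the 36 pairs of members, C3ar1 with Ccr1 had the next value, 0.85. The other neighbours, C5ar1 and C5ar2, had 0.012. Computed the same way over 6 libraries, Fpr1 with Fpr2 had 0.63 in hearts and 0.68 in lungs, where Fpr1 with C3ar1 had 0.95.

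C5ar1 and its relatives behaved unequally. C5ar1 ranged from 48.2 to 71.7 CPM in vehicle libraries (median 58.6 CPM) and from 22.3 to 34.5 CPM with β-NMN (median 26.3 CPM), which did not overlap. Its log2 fold change was -1.14 (SE 0.13, adjusted p = 4.88e-06), a 2.20-fold difference of the means. C3ar1 was abundant in both groups, from 351 to 671 CPM in vehicle libraries (median 556 CPM) and from 522 to 857 CPM with β-NMN (median 579 CPM). Its ranges overlapped and its log2 fold change of 0.22 (SE 0.17) was not called (adjusted p = 0.30). C5ar2 stayed near 1 CPM, from 0.92 to 1.56 in vehicle libraries (median 1.19) and from 0.80 to 1.79 with β-NMN (median 1.21), with a log2 fold change of -0.05 (SE 0.22, adjusted p = 0.87). The ratio of C3ar1 to C5ar1 reads per length rose from 5.66 ± 2.10 to 14.0 ± 2.92 (SD, n = 6 each), with no overlap between groups (highest vehicle library 8.07, lowest β-NMN library 11.1, exact two-sided permutation p = 0.00216).

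Of the lipid receptors, Ltb4r1 fell and Ptafr was not called. Ltb4r1 ranged from 3.35 to 6.38 CPM in vehicle libraries (median 6.29 CPM) and from 0.605 to 1.71 CPM with β-NMN (median 1.41 CPM). The groups did not overlap, and the log2 fold change was -2.01 (SE 0.23, adjusted p = 6.27e-06). Ptafr, the member with the highest level per length, ranged from 619 to 802 CPM (median 686 CPM) and from 627 to 785 CPM (median 648 CPM). Its groups overlapped almost wholly, with a log2 fold change of -0.06 (SE 0.089, adjusted p = 0.62).

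The chemokine receptors divided in the same way. Cxcr4 ranged from 99.3 to 132 CPM in vehicle libraries (median 119 CPM) and from 26.6 to 47.1 CPM with β-NMN (median 39.7 CPM), without overlap. It fell by 1.60 on the log2 scale (SE 0.12, adjusted p = 1.96e-07), which is 3.02-fold in the means. Ccr1 ranged from 173 to 286 CPM in vehicle libraries (median 227 CPM) and from 206 to 219 CPM with β-NMN (median 211 CPM). All 6 β-NMN values lay inside the vehicle range, and the log2 fold change of -0.10 (SE 0.11) was not called (adjusted p = 0.46).

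**Figure D2:**
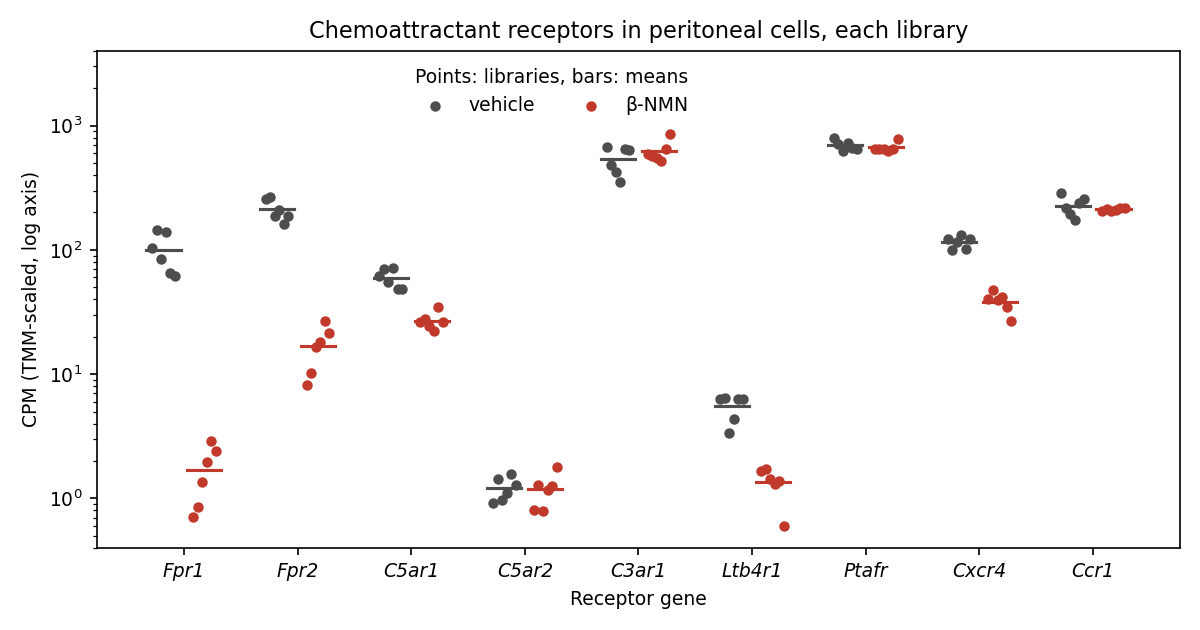
CPM of the 9 receptors in each peritoneal library on a log axis, with points for the 6 vehicle and 6 β-NMN libraries in replicate order and bars at group means. The groups are separate for Fpr1, Fpr2, C5ar1, Ltb4r1 and Cxcr4 and overlap for C5ar2, C3ar1, Ptafr and Ccr1.

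In all, 5 of the 9 members were called lower with β-NMN in peritoneal cells, where 27.9% of all tested genes were, and 0 were called higher, where 23.7% of all genes were. The same 5 had every β-NMN library below every vehicle library, which held for 14.0% of genes, and by exact permutation of mean log2 CPM, two-sided, each had p = 0.00216. The median log2 fold change was -1.14 over the members and -0.02 over all genes tested. The deepest libraries were vehicle 4, 5 and 6 and β-NMN 1 and 2, all above 60 M counts, and the β-NMN pair also held the lowest Fpr1 and Fpr2 values. Within these 5 libraries the log2 fold change of Fpr1 was -6.76 (adjusted p = 0.00036) and that of Fpr2 -4.26 (adjusted p = 0.00011), and within the other 7 they were -5.65 (adjusted p = 2.87e-06) and -3.49 (adjusted p = 5.85e-06). The same 5 receptors were called in each subset.

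Markers of other cells moved with these receptors, in cells where 23.7% of all genes tested were called higher and 27.9% lower. Of 13 neutrophil markers 10 were tested in peritoneal cells: 7 were called lower and 1, Retnlg, higher, with a median log2 fold change of -2.20. S100a8, a calcium-binding protein of the neutrophil cytosol, went from 87.4 ± 35.4 to 2.78 ± 1.46 CPM (31.5-fold lower), and the neutrophil surface protein gene Ly6g was 25.9-fold lower from a vehicle mean of 1.05 CPM. The summed level of the 13 markers ranged from 527 to 1051 CPM in vehicle libraries and from 360 to 481 CPM with β-NMN, and none of the 13 was at 0 in all libraries. Of the 5 monocyte markers 2 were lower, and the list's summed level overlapped between groups (165 to 395 against 199 to 263 CPM). Of the 9 macrophage markers 3 were higher and none was lower, and their summed level was 5975 to 9230 CPM in vehicle libraries and 11135 to 12756 CPM with β-NMN. Lyz2 alone averaged 4340 CPM of that sum in vehicle libraries and 7752 CPM with β-NMN. T cell markers were lower in 4 of 4 (median -1.67, summed level 3.03 to 9.64 against 0.88 to 2.57 CPM), dendritic cell markers in 3 of 3 (median -1.22, 31.3 to 51.3 against 11.3 to 17.1 CPM) and B cell markers in 2 of 4 (median -0.67, 30.6 to 149 against 20.6 to 81.6 CPM), and 0 of the 4 mast cell markers was called. Of 4 large peritoneal macrophage markers 2 were higher and 2 lower, Timd4 at 3.29-fold higher and Gata6 at 2.65-fold lower among them, and 2 of 3 endothelial markers were lower. The part of these markers in the receptor changes was not tested.

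**Figure D3:**
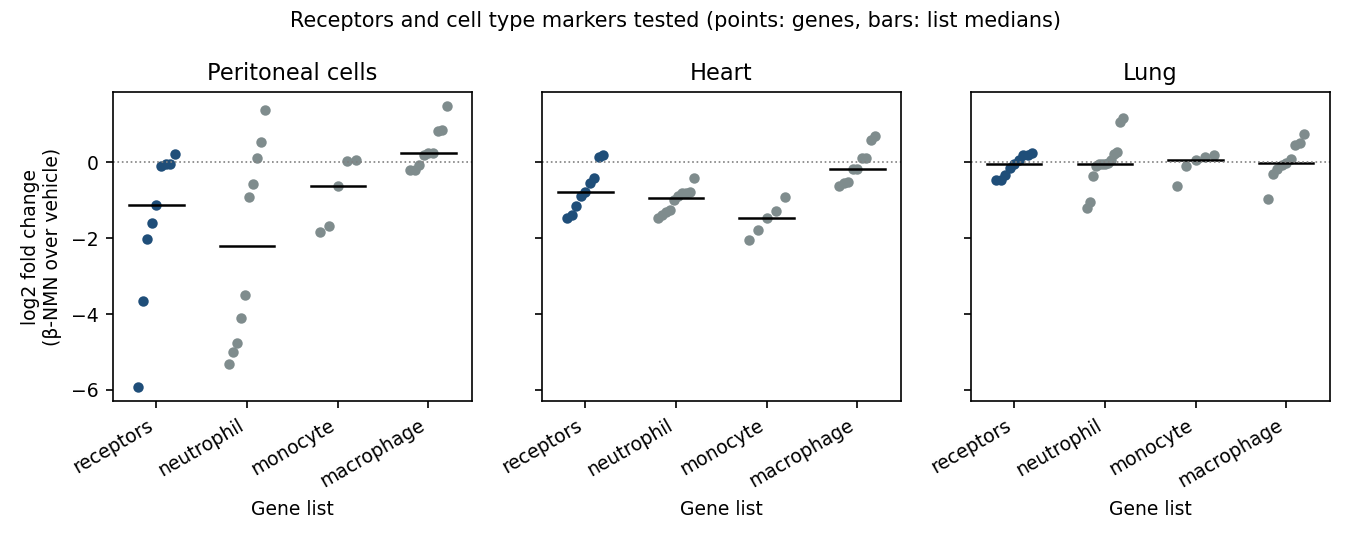
Log2 fold change (β-NMN over vehicle) of the 9 receptors and of the tested neutrophil, monocyte and macrophage markers in peritoneal cells, heart and lung, 1 point per gene with bars at list medians. In peritoneal cells the median is -1.14 for the receptors, -2.20 for neutrophil markers and 0.24 for macrophage markers, and in the lung all 4 medians lie near 0.

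Calls among the genes around the receptors went in both directions in peritoneal cells, where 23.7% of all genes tested were higher and 27.9% lower. Of 20 genes for ligands of the 9 receptors or for enzymes that make or break them, 19 were tested, 4 were higher and 9 lower (median log2 fold change -0.20). Anxa1, which encodes the Fpr2 ligand annexin A1, rose 2.29-fold (log2 fold change 1.19, SE 0.12, adjusted p = 1.77e-06), and Ccl9, a chemokine that binds Ccr1, rose 1.97-fold (log2 fold change 0.98, SE 0.11, adjusted p = 3.81e-06). Lpcat2, an enzyme that makes platelet-activating factor, fell by 2.45 on the log2 scale (SE 0.19, adjusted p = 1.39e-07), and C3, the source of C3a, fell by 1.75 (SE 0.15, adjusted p = 4.27e-07). Of 24 other leukocyte chemoattractant receptors, 19 were tested, 2 were higher and 13 lower (median -1.04). Ccr7, which guides cells to lymph nodes, went from 148 ± 11.4 to 27.8 ± 4.95 CPM (log2 fold change -2.41, adjusted p = 4.19e-09) and Cxcr2, the neutrophil receptor for Cxcl1 and Cxcl2 that also stands in the neutrophil list, from 4.41 ± 1.85 to 0.27 ± 0.17 CPM (log2 fold change -4.10, adjusted p = 1.44e-06). Cysltr1 for cysteinyl leukotrienes (log2 fold change 0.72, adjusted p = 0.00067) and Ccr3, a receptor of eosinophils (1.47, adjusted p = 0.0033, ranges overlapping), were the 2 that rose.

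Downstream of the receptors, 19 signalling genes were tested, of which 5 were higher and 6 lower (median -0.16), close to the shares over all genes. Gng2, a G protein γ subunit, rose by a log2 fold change of 1.49 (SE 0.11, adjusted p = 1.62e-07) and Plcb2, a phospholipase C, by 0.75 (SE 0.10, adjusted p = 2.46e-05). Rac2, a GTPase of leukocyte movement, fell by 0.89 on the log2 scale (SE 0.088, adjusted p = 1.54e-06), and Pik3cg, the catalytic subunit of PI3-kinase γ, fell by 1.48 (SE 0.15, adjusted p = 1.71e-06). All 13 listed genes that switch receptors off were tested, of which 3 were higher and 4 lower (median -0.01), again close to those shares. The receptor kinase Grk3 rose 3.17-fold (log2 fold change 1.66, SE 0.12, adjusted p = 8.94e-08) and Rgs10 rose 1.71-fold (0.78, SE 0.18, adjusted p = 0.0019), while Rgs2 and Rgs16, which shorten G protein signals as Rgs10 does, fell by 1.37 (SE 0.18, adjusted p = 2.47e-05) and 2.33 (SE 0.35, adjusted p = 6.77e-05). Within the 7 shallower libraries Rgs10 was not called (log2 fold change 0.36, adjusted p = 0.13), and within the 5 deeper ones Cysltr1 was not (0.67, adjusted p = 0.095).

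In vehicle hearts 8 of the 9 receptors had a lower mean per length than in vehicle peritoneal cells, the exception being C5ar2, and the tables were scaled separately. Per length, Fpr1 at 6.91 ± 0.77, C5ar1 at 6.36 ± 0.032, Fpr2 at 5.59 ± 0.53 and C3ar1 at 4.04 ± 0.87 RPKM led in vehicle hearts (SD, n = 3), and Fpr1 and C5ar1 overlapped while the others in this order did not. Ccr1 at 1.97 ± 0.43 and C5ar2 at 1.21 ± 0.47 RPKM came next. Cxcr4, Ptafr and Ltb4r1 were at 1.10 ± 0.17, 1.00 ± 0.16 and 0.68 ± 0.49 RPKM, each overlapping with its neighbour. Ptafr, which led in peritoneal cells, was thus the member with the second-lowest mean in vehicle hearts.

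With β-NMN, 7 of the 9 receptors had negative log2 fold changes in hearts, but 0 members and 0% of the 16245 genes tested were called by edgeR's quasi-likelihood test. Fpr2 was at 7.96, 7.19 and 6.58 CPM in the vehicle hearts and at 4.99, 3.68 and 4.08 CPM in the β-NMN hearts. C5ar1 was at 16.3, 16.4 and 16.4 CPM against 11.8, 10.4 and 11.5 CPM, and Ccr1 at 5.38, 6.88 and 4.48 CPM against 2.35, 1.24 and 2.51 CPM. In each of these 3 genes the β-NMN hearts lay below all vehicle hearts. C5ar2 was at 3.75, 6.17 and 3.0 CPM against 2.53, 1.64 and 1.71 CPM, and Ptafr at 3.0, 4.12 and 3.84 CPM against 2.20, 2.31 and 1.41 CPM, which did not overlap either. These 5 of 9 members compare with 11.5% of all genes whose β-NMN hearts all lay below the vehicle hearts. The same 5 had an unadjusted p below 0.05 in the lower direction, as did 7.63% of all genes.

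The log2 fold changes of these 5 in hearts were -0.77 for Fpr2 (SE 0.19), -0.54 for C5ar1 (SE 0.12), -1.46 for Ccr1 (SE 0.32), -1.15 for C5ar2 (SE 0.34) and -0.89 for Ptafr (SE 0.27). Each had an adjusted p of 0.44 by edgeR, and the exact permutation p, two-sided, was 0.1, the smallest that 3 mice against 3 allow. DESeq2's Wald test called 3 of them lower, Ccr1 (adjusted p = 0.0060), C5ar1 (adjusted p = 0.0083) and Fpr2 (adjusted p = 0.018), where it called 1.38% of all genes lower. The median log2 fold change was -0.77 over the members and -0.01 over all genes tested. The heart calls therefore depended on the test.

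The other 4 receptors overlapped between the groups of hearts. Fpr1 was at 10.0, 8.03 and 9.43 CPM in vehicle hearts and at 8.16, 6.56 and 5.83 CPM with β-NMN (log2 fold change -0.42, SE 0.18). Ltb4r1, counted by 6 to 90 reads per heart, was at 0.81, 1.69 and 0.35 CPM against 0.22, 0.42 and 0.42 CPM (log2 fold change -1.39, SE 0.59), and without the heart of vehicle mouse 2, the highest, the value was -0.71. C3ar1 and Cxcr4 had log2 fold changes of 0.20 (SE 0.27) and 0.13 (SE 0.22), which were 0.019 and 0.25 without that heart, with ranges of 13.1 to 19.7 against 13.1 to 24.9 CPM and of 1.72 to 2.31 against 2.05 to 2.29 CPM. Markers of other cells moved here as well: the 10 tested neutrophil markers all had negative log2 fold changes (median -0.94), and their list's summed level was 28.9 to 49.3 CPM in vehicle hearts and 18.3 to 21.7 CPM with β-NMN. The 5 monocyte markers did likewise (median -1.47, summed level 8.41 to 24.2 against 3.95 to 4.87 CPM), while the macrophage list overlapped (328 to 529 against 370 to 621 CPM). All 4 mast cell markers had negative log2 fold changes (median -1.48), and all 4 cardiac muscle markers had positive ones (median 0.36), with summed levels of 27799.5 to 45179 CPM in vehicle hearts and 47957 to 52178 CPM with β-NMN. EdgeR called no marker of any list in hearts. DESeq2's Wald test called 5 of 46 markers lower and 0 higher, where it called 1.38% of all genes lower. Ngp, Itgam, Chil3 and Plac8 belong to the neutrophil, the macrophage and, for the last pair, the monocyte list. The fifth was Selp of the large peritoneal macrophage list (log2 fold change -3.56, adjusted p = 2.59e-05), at 11.5 to 84.7 CPM in vehicle hearts and 2.61 to 4.25 CPM with β-NMN. Their part in the receptor values was not tested.

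**Figure D4:**
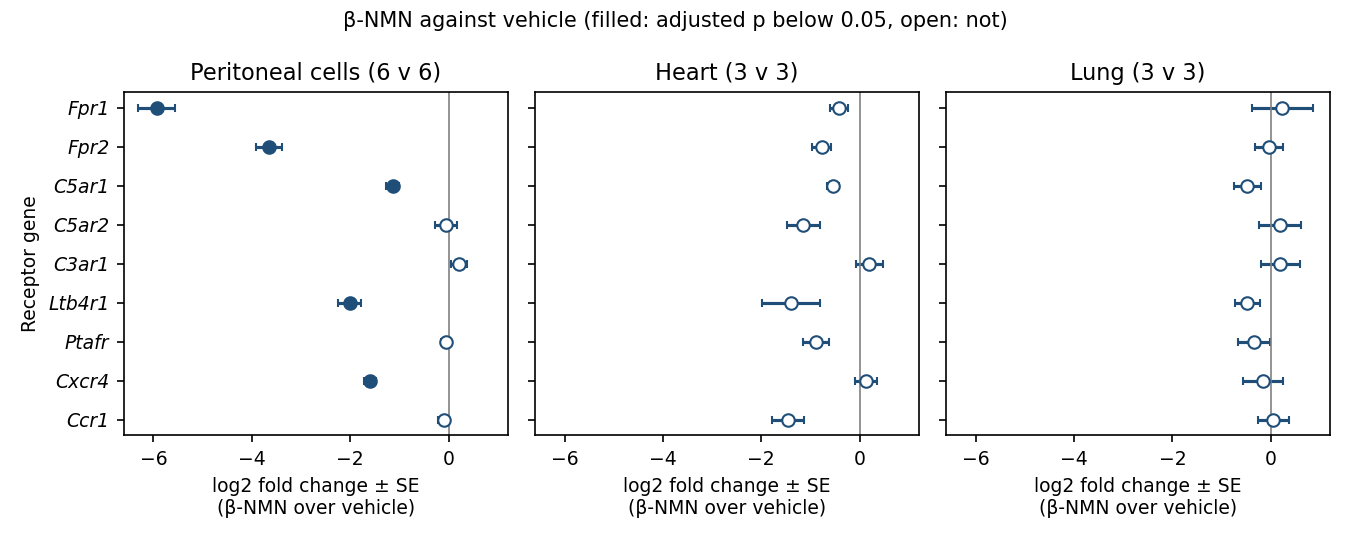
Log2 fold change (β-NMN over vehicle) of each receptor in peritoneal cells, heart and lung, with the standard error of edgeR's quasi-likelihood fit. Filled points have an adjusted p below 0.05, which are 5 in peritoneal cells and 0 in either organ, and Fpr1 has the most negative value (-5.93).

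In lungs the receptor levels of the treatment groups were not separated. Per length, C5ar1 at 22.1 ± 5.44, Cxcr4 at 19.1 ± 9.89, Fpr2 at 15.8 ± 5.08, Ltb4r1 at 15.3 ± 2.82 and Fpr1 at 13.1 ± 10.2 RPKM led in vehicle lungs (SD, n = 3), and each overlapped with its neighbour. Ccr1, C3ar1, Ptafr and C5ar2 followed at 5.01 ± 1.51, 2.79 ± 1.33, 2.39 ± 0.86 and 1.08 ± 0.48 RPKM. With β-NMN, 0 of the 9 members and 0% of 17008 genes were called by edgeR (over all genes DESeq2 called 1 higher and 8 lower, and limma-voom 7 lower, none of them a member), and 0 members had an unadjusted p below 0.05, where 1.77% of all genes did. No member had all β-NMN lungs below all vehicle lungs, which held for 3.75% of genes. Members had a median log2 fold change of -0.04 (0.00 over all genes).

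The receptors with the smallest p in lungs were Ltb4r1 and C5ar1. Ltb4r1 was at 16.9, 23.1 and 24.1 CPM in vehicle lungs and at 17.7, 12.8 and 15.4 CPM with β-NMN (log2 fold change -0.48, SE 0.25, adjusted p = 0.97). C5ar1 was at 40.8, 67.3 and 61.9 CPM against 47.4, 41.9 and 32.9 CPM (log2 fold change -0.48, SE 0.27, adjusted p = 0.97). In both genes the first vehicle lung fell within the β-NMN range.

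The other 7 receptors ranged in log2 fold change from -0.34 for Ptafr to 0.24 for Fpr1. Fpr1 was at 16.9, 4.05 and 30.9 CPM in the vehicle lungs and at 15.4, 22.5 and 23.8 CPM with β-NMN, and the low value belonged to the lung of vehicle mouse 2. That lung was the shallowest library, and its Fpr1 value rested on 28 reads and its C5ar2 value on 13. Without that lung the log2 fold change of Fpr1 went from 0.24 to -0.21, that of Fpr2 went from -0.04 to -0.16, and those of C5ar2, C3ar1, Cxcr4 and Ccr1 also changed sign, to -0.12, -0.13, 0.34 and -0.14. Neutrophil markers spanned 1858 to 3156 CPM in summed level in vehicle lungs and 1746 to 2709 CPM with β-NMN, and of 13 tested 8 had negative log2 fold changes (median -0.04). The summed macrophage level did not overlap, at 1592 to 4615 CPM in vehicle lungs and 5261 to 5816 CPM with β-NMN. Of the 9 markers in that sum, however, 4 had positive and 5 negative log2 fold changes (median -0.02), and a sum weighs the most abundant genes most. The summed monocyte level did overlap (586 to 1184 against 907 to 938 CPM). The part of these lists in the receptor values was not tested.

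The effect of β-NMN was then compared between the organs of the same mice with an interaction term fitted to all 12 organ libraries. This fit held no term for the mouse, so both organs of a mouse counted as independent libraries. None of the 9 members, and 0% of the 18318 genes tested, was called by edgeR (DESeq2 called 6 higher and 8 lower, none of them a member, and by edgeR 797 genes had an unadjusted p below 0.05, among them Ccr1 and C5ar2). The log2 difference of the effects, heart minus lung, was -1.52 for Ccr1 (SE 0.49, adjusted p = 0.96) and -1.31 for C5ar2 (SE 0.58, adjusted p = 0.96), and 7 of the 9 differences were negative. Without both organs of vehicle mouse 2 they were -1.14 for Ccr1 and -0.67 for C5ar2. With the mouse as a replicate block, 0 members were called as well.

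Levels differed between the organs for most of the receptors. On a scale common to both organs, 6 members were called higher in lung than in heart, as 35.9% of 17772 genes were, and 1 was called lower, as 29.3% of genes were. Folds here are those of the fit, not ratios of the means, and this fit held no term for the mouse either. Ltb4r1 averaged 14.8 CPM in lungs and 0.81 CPM in hearts, a fitted 18.8-fold (log2 fold change 4.23, SE 0.36, adjusted p = 5.70e-07), and its lowest lung (10.3 CPM) stood above its highest heart (2.08 CPM). Cxcr4 averaged 26.0 against 2.59 CPM, a fitted 9.72-fold (log2 fold change 3.28, SE 0.23, adjusted p = 9.77e-08), also without overlap. Both were higher in the lung in 6 of 6 mice.

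Ccr1 was 2.72-fold higher in lung (adjusted p = 0.0019) and was higher there in 5 of 6 mice, whereas Fpr2 (2.31-fold, adjusted p = 0.0002), C5ar1 (2.23-fold, adjusted p = 1.04e-05) and Ptafr (1.82-fold, adjusted p = 0.0053) were higher in 6 of 6. C3ar1 went the other way, with 10.5 CPM in lungs and 23.2 CPM in hearts (log2 fold change -1.17, SE 0.26, adjusted p = 0.0014), and was lower in the lung of every mouse. Fpr1 (log2 fold change 0.61, SE 0.36, adjusted p = 0.16) and C5ar2 (-0.13, SE 0.34, adjusted p = 0.76) were not called. Fpr1 was higher in the lung in 5 of 6 mice, the exception being vehicle mouse 2 (3.08 CPM in lung and 9.85 CPM in heart). Without the lung of that mouse Fpr1 was called, with a log2 fold change of 0.85 (adjusted p = 0.0012).

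**Figure D5:**
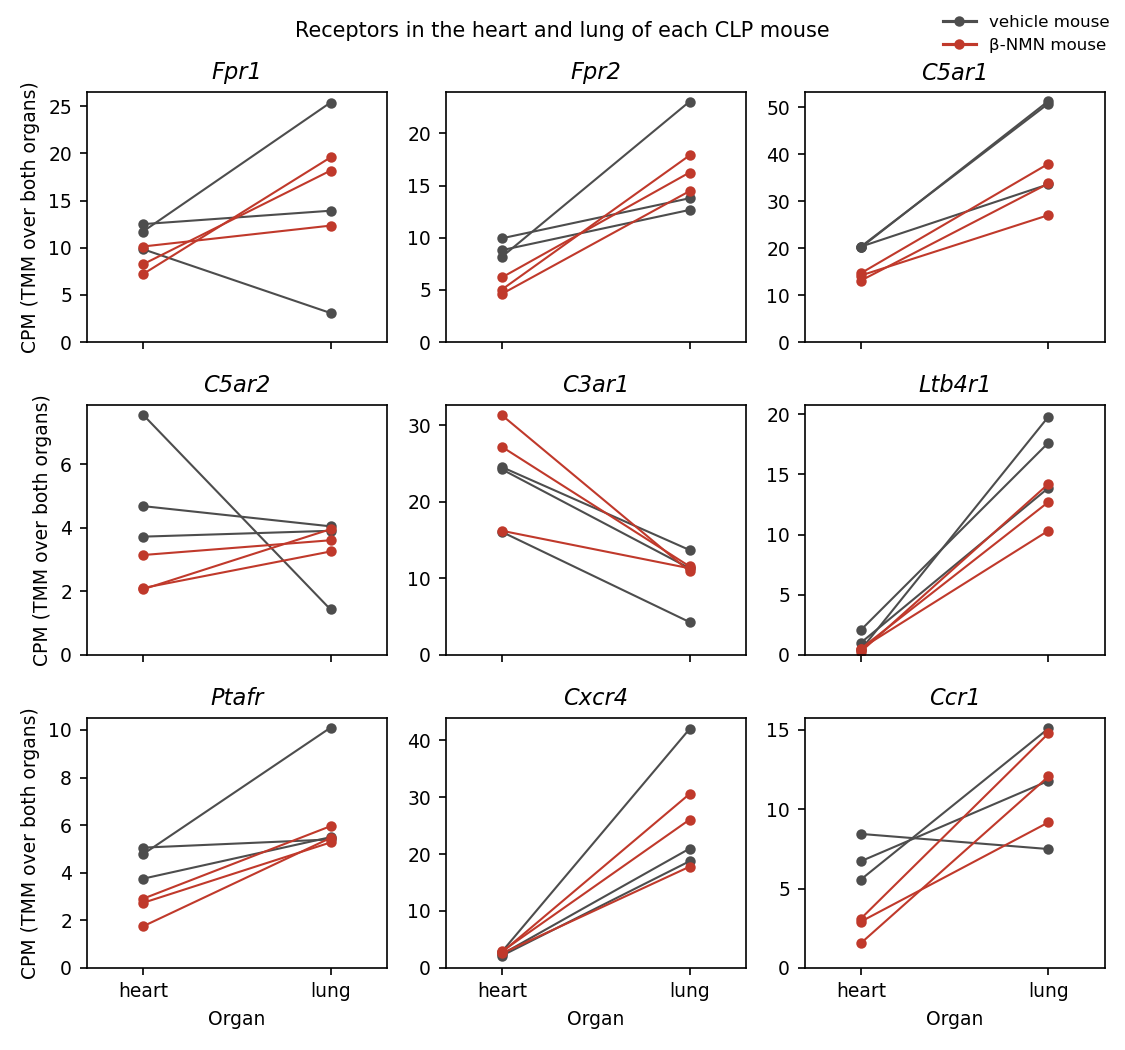
CPM of each receptor in the heart and the lung of the 3 vehicle and 3 β-NMN CLP mice, scaled by TMM over both organs, with a line joining the organs of each mouse. Lines rise in all 6 mice for Fpr2, C5ar1, Ltb4r1, Ptafr and Cxcr4 and fall in all 6 for C3ar1, and those of Fpr1, C5ar2 and Ccr1 run both ways.

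In the organs no context gene was called by edgeR. DESeq2's Wald test called 9 of 62 lower in hearts, where 1.38% of all genes were, and 0 higher, and none of 70 in lungs. The 9 were the ligand or enzyme genes Ccl9 (adjusted p = 1.74e-06), Ccl7 (adjusted p = 2.15e-05), Pla2g7 (adjusted p = 2.93e-05), Ccl3 (adjusted p = 0.0014), Ccl6 (adjusted p = 0.0017) and Saa3 (adjusted p = 0.0070), the kinase subunit and kinase genes Pik3r5 (adjusted p = 0.0056) and Fgr (adjusted p = 0.0028), and Cmklr1 (adjusted p = 0.044). By edgeR, among ligand genes the smallest p belonged to Ccl9 in hearts (28.8 ± 2.21 against 16 ± 0.87 CPM, log2 fold change -0.85, SE 0.12, adjusted p = 0.44), which in peritoneal cells had the opposite sign, and to Ccl3 in lungs (log2 fold change -1.90, SE 0.65, adjusted p = 0.97). Of other receptors it belonged to Cmklr1 for chemerin in hearts (-0.54, SE 0.13) and to Ackr1, a chemokine-binding decoy receptor, in lungs (-2.79, SE 1.03). Of signalling genes it belonged to Pik3r5 in hearts (-0.58, SE 0.12) and Gng2 in lungs (0.72, SE 0.38), and of the genes that switch receptors off to the arrestin gene Arrb1 in hearts (-0.49, SE 0.18) and Rgs16 in lungs (-1.70, SE 0.76). Without the lung of vehicle mouse 2 the lung values moved to -1.16 for Ccl3, -1.02 for Ackr1, 0.42 for Gng2 and -0.63 for Rgs16, and without its heart Arrb1 moved to -0.31. In hearts 15 of 20 ligand genes and 10 of 13 other receptors tested had negative log2 fold changes (medians -0.64 and -0.60), and in lungs 10 of 20 and 7 of 18 did (medians 0.03 and 0.10).

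Across all 24 libraries, after subtracting each tissue's mean log2 CPM, the genes whose pattern was most like each receptor were described by Pearson's r among 12859 genes tested in all tissues. For Fpr1 they were Clec4n (r = 0.98), which encodes the fungal lectin receptor Dectin-2, and Dgat2 (0.98), an enzyme of triglyceride synthesis. For Fpr2 they were Fpr1 (0.98) and Wfdc21 (0.98). For C5ar1 they were Samsn1 (0.92) and Nfe2l2 (0.91), which encodes the antioxidant factor Nrf2, and for Ltb4r1 they were Pdlim7 (0.92) and the interleukin-1 decoy receptor gene Il1r2 (0.92). Cxcr4 had Pde4d (0.95), a cAMP phosphodiesterase, and Ramp3 (0.94). The members that were not called in peritoneal cells had lower values: C3ar1 with Fanca (0.87) and P2ry14 (0.87), Ccr1 with the Src-family kinase gene Fgr (0.89) and Ms4a8a (0.88), Ptafr with Slc7a8 (0.83) and Egr2 (0.74), and C5ar2 with Csf2rb2 (0.83) and Lrp1 (0.83). The points share libraries and scaling, and 12 of the 24 are peritoneal cells, where the treatment groups differed most.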

How the data were processed

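RNA was measured in 24 libraries: peritoneal cells (6 vehicle, 6 β-NMN), CLP hearts (3 and 3) and CLP lungs (3 and 3). Per the submitters' processing notes the authors aligned reads to mm10 with STAR 2.7.3a and counted them with featureCounts 2.0.0. The deposited values are raw read counts per gene symbol in 2 tables. For the counting, annotation and strand setting are not given in the sources used here. Overlapping genes can therefore share reads. One source label of the CLP organs names thioglycollate; titles and tissue labels, which give CLP, were used. A pair of β-NMN hearts is titled with the same replicate number, and organs were joined by the mouse code in the titles, so the heart of code B17 was taken as replicate 2, on which the joining of organs by mouse rests.

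Each tissue was fitted separately with edgeR 4.0.16 in R 4.3.3 (filterByExpr, TMM scaling, quasi-likelihood F test, Benjamini-Hochberg adjustment over all genes that passed, threshold 0.05). SE is the size of the log2 fold change divided by the square root of F. Hearts and lungs were also fitted together for the difference between organs and for the interaction, without a term for the mouse except in the replicate block. Log2 CPM used a prior count of 2. RPKM divides CPM by union-exon length in GENCODE M21, where 54106 of 54658 symbols were found. The exact permutation tests were two-sided over libraries. DESeq2 1.42.0, limma 3.58.1 (voom with quality weights), other scalings and filters, a replicate block and leaving out each library were alternatives, and the split at 60 M counts was added after the data had been seen.

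All 9 members were named, with, per context list and tissue, the 2 called genes of smallest p in each direction (or the gene of smallest p where none was called) and the 2 genes of highest r per member. Single markers of any tissue, and context genes called by DESeq2 alone, were named after their values were seen. Members and lists were chosen with earlier results of these data known. Nothing in the labels says that same-numbered vehicle and β-NMN mice belong together, and p-values measure the spread between these libraries. The code was tested on simulated data.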

Additional observations from a re-analysis of the deposited data

Results flagged for a closer look

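In β-NMN peritoneal replicate 6, 2 receptors stood far from the other 5 libraries of the group. Ltb4r1 was at 0.605 CPM, the lowest of the group, with a gap to the next library of 0.730 of the group's range in log2 CPM (0.625 in CPM). Ptafr was at 785 CPM, the highest of the group, with a gap of 0.835 of the range in log2 CPM (0.85 in CPM). On the log2 scale both gaps passed Dixon's 95% critical value, which chance passes in about 1 in 20 groups. The rule screened the vehicle and the β-NMN group of every member in peritoneal cells, so a pass by chance would not be rare. Without this library the log2 fold change of Ltb4r1 was -1.83 and that of Ptafr -0.08, and neither changed its side of the threshold.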

How the results depend on the processing

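In peritoneal cells 5 members were called lower under every alternative, leaving out each of the 12 libraries included. With 1 library left out the log2 fold change ranged from -6.13 to -5.72 for Fpr1, from -3.81 to -3.49 for Fpr2, from -1.19 to -1.04 for C5ar1, from -2.09 to -1.83 for Ltb4r1 and from -1.66 to -1.48 for Cxcr4. In hearts DESeq2 called 3 members lower where edgeR and the other alternatives called 0, and the cause was not tested. With 1 heart left out the log2 fold change ranged from -0.90 to -0.68 for Fpr2, -0.57 to -0.49 for C5ar1, -1.36 to -0.81 for C5ar2, -1.03 to -0.69 for Ptafr, -1.65 to -1.20 for Ccr1, -0.56 to -0.31 for Fpr1, -1.77 to -0.71 for Ltb4r1, 0.0038 to 0.43 for C3ar1 and 0.048 to 0.25 for Cxcr4. Lung against heart, 7 or 8 members were called, the eighth being Fpr1 without the lung, or both organs, of vehicle mouse 2. With a replicate block on the shared numbers, 5 members were again called lower in peritoneal cells, and 3422 genes were higher and 3711 lower, against 3546 and 4187 without it, but the low-count filter then also kept 17935 genes in place of 14985, so both choices changed. Deviations of same-numbered libraries correlated at -0.17 to 0.13 in peritoneal cells, 0.073 to 0.24 in hearts and -0.52 to 0.30 in lungs, so the numbers were not taken as pairs. The mouse as a replicate block between organs changed no call of a member.

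Signs turned only for values that were not called. With 1 library left out, log2 fold changes in peritoneal cells ranged from -0.18 to 0.072 for C5ar2, -0.080 to 0.018 for Ptafr and -0.13 to 0.0028 for Ccr1. In lungs they ranged from -0.21 to 0.95 for Fpr1, -0.16 to 0.28 for Fpr2, -0.12 to 0.40 for C5ar2, -0.13 to 0.51 for C3ar1, -0.50 to 0.020 for Ptafr, -0.36 to 0.34 for Cxcr4 and -0.14 to 0.30 for Ccr1. The heart minus lung difference ranged from -0.20 to 0.082 for C5ar1, -0.30 to 0.36 for C3ar1 and -0.17 to 0.45 for Cxcr4, and C5ar2 in lung against heart from -0.27 to 0.090. In peritoneal libraries below 60 M counts C5ar2 was at 0.20. In lungs limma-voom gave 0.081 for Fpr2, -0.20 for C5ar2, -0.067 for C3ar1 and 0.024 for Cxcr4, and the replicate block 0.014 for Fpr2. For heart minus lung, the replicate block gave -0.17 for C3ar1, DESeq2 0.015 and its size factors 0.018 for C5ar1, and leaving out both vehicle mouse 2 libraries -0.070 for Cxcr4. The latter gave 0.16 for C5ar2 in lung against heart. With 3 mice per group and as few as 6 reads of Ltb4r1 in a heart, depth and number of mice limit what the organs can show.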
